A study of Rattus norvegicus with 7 samples.

Results

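The 10 genes analysed here belong to the thyroid hormone and retinoid receptor axis and were followed in differentiating rat oligodendrocyte progenitor cells. They are the receptors Thra, Thrb and Vdr, the retinoid X receptors Rxra, Rxrb and Rxrg, the deiodinases Dio2 and Dio3, and the hormone-induced genes Klf9 and Hr. They were chosen by gene symbol, and all 10 were found, once each, among the 32852 genes of the table. All 10 also passed the filter of a mean normalised count of at least 10, with 18225 genes in all. The cells, of wild-type genotype, were isolated from rat brain at postnatal day 7, transfected in 12-well plates with Lipofectamine RNAiMAX, and kept in differentiating medium for the following 4 to 5 days. Of the 7 libraries, 4 received a control siRNA and 3 an siRNA against RNLTR12-int, a rat endogenous retroviral sequence. The labels call the libraries biological replicates but name no animal, culture or day, so each p-value reflects only how far these samples spread, and that spread may be technical. The level of RNLTR12-int was not analysed here, so the knockdown was not checked.

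Thyroid hormone reaches the brain largely as thyroxine, a prohormone that the deiodinase Dio2 converts to the active triiodothyronine, while Dio3 inactivates both. Triiodothyronine binds the nuclear receptors encoded by Thra and Thrb, which sit on DNA mostly as heterodimers with a retinoid X receptor, repress target genes without hormone and activate them with it. Retinoid X receptors serve in the same way as partners of the vitamin D receptor and the retinoic acid receptors. Thyroid hormone is a classical signal for oligodendrocyte progenitors to stop dividing and mature, and is a common component of differentiation media. The composition of the medium was not examined here.

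The libraries held between 22523873 and 61803693 reads, as recovered from the deposited normalised counts. Transcripts of other cell types were present and did not follow the siRNA. Astrocyte markers (10 of 10 genes detected) summed to between 137424 and 577853 normalised counts in controls and between 131352 and 640252 after the siRNA. Control replicates 1 and 2 and siRNLTR12-int replicate 1 were high: Gfap, the intermediate filament of astrocytes, stood at 262591, 224537 and 306397 there, against 19440 to 44392 in the other 4 libraries. Microglia markers (9 genes measured, none at 0 throughout) summed to between 1558 and 13713 in controls and between 2365 and 16217 after the siRNA. They were highest in the libraries numbered 1 of each group, and Aif1, which marks microglia, had 139.7 and 159.9 normalised counts in those and 24.1 to 64.6 elsewhere. Of 7 vascular and fibroblast markers measured, the endothelial Cldn5 was at 0 in every library. Their sum was 1521 to 4255 in controls and 1509 to 3705 after the siRNA, with both libraries numbered 1 high again. Neuron markers (10 of 10 detected) summed to between 26621 and 32576 in controls and between 28486 and 34992 after the siRNA. Map2 alone, at 21359 to 29464, made up most of each sum. The mean log2(normalised count + 1) of the list was lowest in both libraries numbered 1, 8.33 and 8.31, against 8.75 to 9.30 elsewhere. Rbfox3, which marks mature neurons, had 102.4 and 114.2 in those and 172.0 to 407.6 in the rest. Sox10, the defining factor of the oligodendrocyte lineage, was present throughout. It stood at 8318 and 8037 normalised counts in control and siRNLTR12-int replicates numbered 1 and at 27505 to 38713 in the rest. In such bulk samples, fewer cells of a type and less RNA per cell cannot be told apart.

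None of the 10 genes passed the test between the siRNA groups. With limma on log2(normalised count + 1), 0 of 10 had a Benjamini-Hochberg adjusted p under 0.05, as did 0% of all 18225 genes tested. Without adjustment limma gave 1 of 10 a p under 0.05 (Klf9, on the higher side), where 6.3% of all genes lay, 3.33% on the higher side. With edgeR on the recovered reads 0 of 10 passed, as did 0% of all genes, and Thra alone had an unadjusted p under 0.05 (1 of 10), where 6.39% of all genes lay. Limma with array weights, which give noisier libraries less say, also called 0 of 10, against 4.6% of all genes. The authors' deposited table called none of the 10, against 0.752% of all genes given an adjusted p. Thra was again the 1 gene with a raw p under 0.05, where 5.19% of all genes lay. The median log2 difference of the 10 genes was -0.01, against 0.01 for all genes tested, with 4 above 0 and 6 below. Klf9 was the 1 gene of the 10 whose siRNLTR12-int values all lay above every control, a pattern of 4.09% of all genes tested. For 0 of 10 did all siRNLTR12-int values lie below every control, a pattern of 3.59% of all genes.

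**Figure D1:**
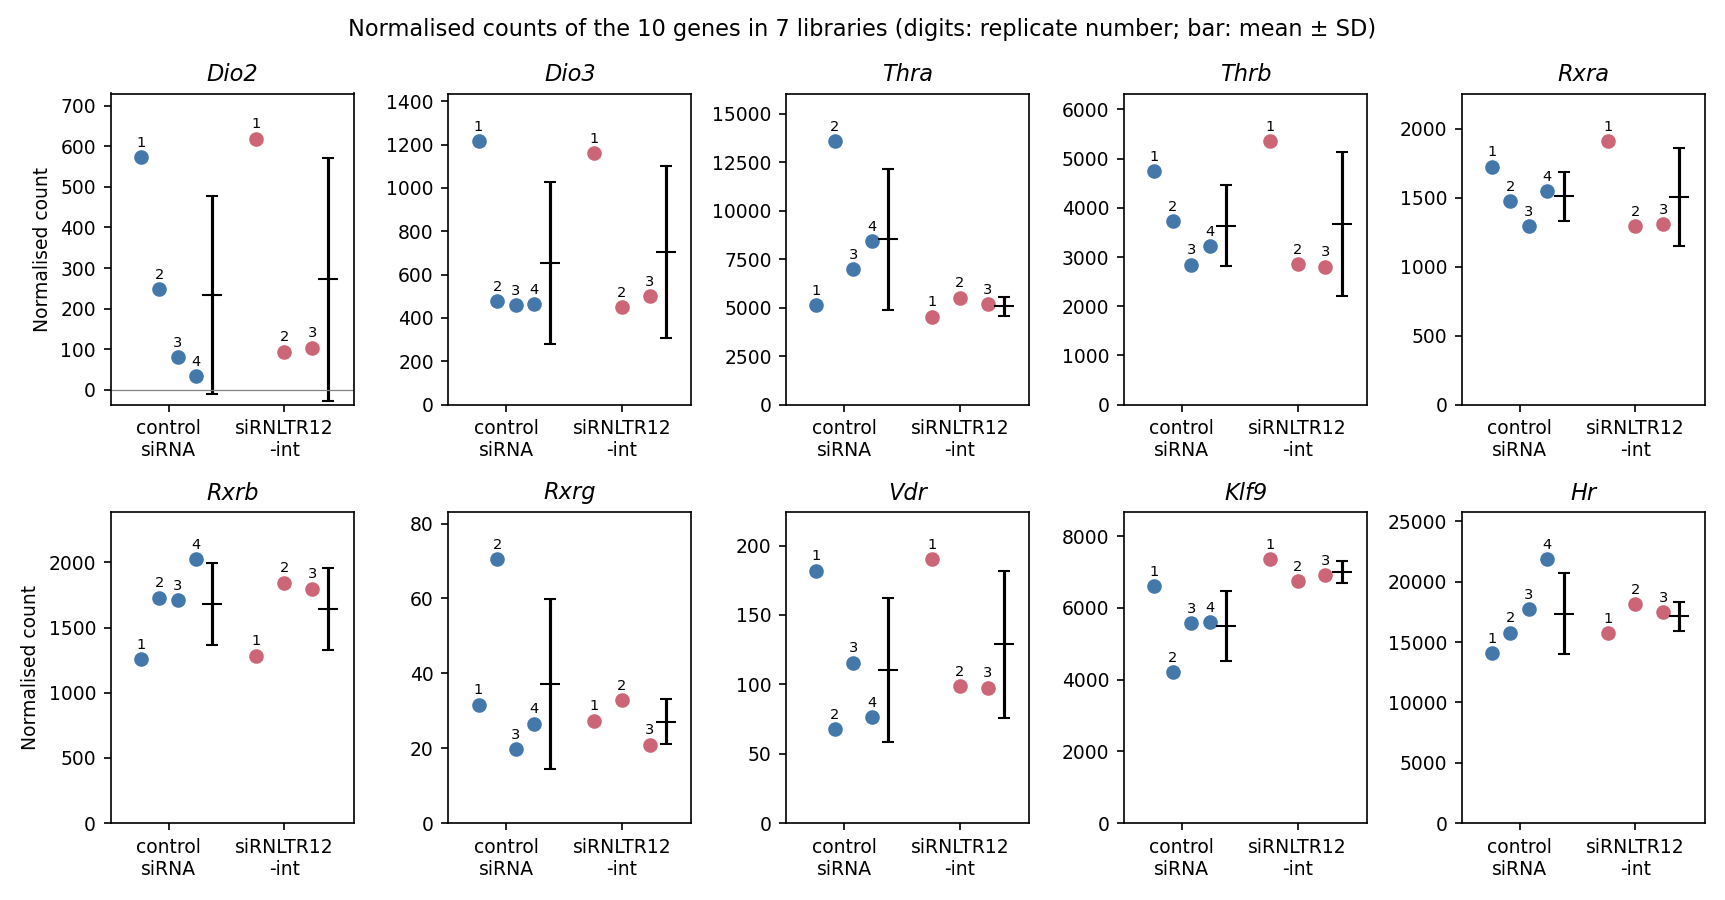
Normalised counts (vertical axis, linear, a separate scale for each gene) of the 10 genes in each library, with control siRNA in blue, siRNLTR12-int in red and the replicate number above each point; bars give mean ± SD (n = 4 and n = 3). The replicates numbered 1 of both groups stand highest in Dio2, Dio3, Thrb, Rxra and Vdr, and in Klf9 the 3 siRNLTR12-int values (6740 to 7351) lie above the controls (4203 to 6606).

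The deiodinases, which set how much active hormone a cell sees, differed more between libraries of 1 group than between the groups. Dio2 (ENSRNOG00000003891), the activating enzyme and in the brain chiefly a product of astrocytes and tanycytes, had 573.2, 247.4, 81.0 and 33.7 normalised counts in control replicates 1 to 4 and 618.5, 93.7 and 104.0 after the siRNA, in the same order of replicates. Control replicate 1, siRNLTR12-int replicate 1 and, lower, control replicate 2 were high, and the groups overlapped completely. These were the same 3 libraries that were high in astrocyte markers, and whether those cells carried the Dio2 transcripts was not tested. The highest library was 18.4 times the lowest, the widest range of the 10 genes, and the lowest rested on 19 reads in control replicate 4. Group means were 233.8 ± 244.1 (SD, n = 4) and 272.0 ± 300.1 (SD, n = 3). Dio2 differed by 0.37 (log2), with a 95% interval from -2.15 to 2.89 (limma adjusted p = 0.992). That interval leaves room for changes of several fold in either direction. Among the 4 libraries with low astrocyte levels Dio2 differed by 0.90 (limma adjusted p = 0.239).

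Dio3 (ENSRNOG00000052017), the inactivating enzyme and itself a gene induced by thyroid hormone, had 1217, 478.2, 459.4 and 463.0 normalised counts in control replicates 1 to 4. After the siRNA it had 1160, 449.4 and 499.7. Both replicates numbered 1 were high, and the other 5 libraries lay between 449.4 and 499.7 whichever siRNA they had received. Control replicate 2, high in astrocyte markers and intermediate in Dio2, was at the level of the other 4 in Dio3. The log2 difference of Dio3 was 0.11 (95% interval -0.98 to 1.19, limma adjusted p = 0.994). With both replicates numbered 1 left out it was 0.02. The ratio of Dio2 to Dio3 within a library, which does not depend on library scaling, was -1.09, -0.95, -2.50 and -3.78 on the log2 scale in controls 1 to 4 and -0.91, -2.26 and -2.26 after the siRNA. It was thus highest in the 3 libraries rich in astrocyte markers and lower in the other 4, in both siRNA groups.

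The sequences upstream of both deiodinase genes are shown because Dio2 and Dio3, enzymes of opposite action, were high in the same pair of libraries. They are the 250 bases before the annotated start from RefSeq (build GRCr8, gene strand, 5′ to 3′), for Dio2 chr6:115410595-115410844 on the minus strand and for Dio3 chr6:135106822-135107071 on the plus strand. Capitals mark core letters on either strand: TATAAA for the TATA box, CCAAT for the box of that name, and the Sp1 or GC box GGGCGG.
Dio2: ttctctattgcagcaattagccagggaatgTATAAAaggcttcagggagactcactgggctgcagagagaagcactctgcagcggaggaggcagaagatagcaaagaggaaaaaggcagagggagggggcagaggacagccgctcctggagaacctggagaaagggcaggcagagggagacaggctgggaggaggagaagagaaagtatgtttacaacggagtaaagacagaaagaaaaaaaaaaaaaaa
Dio3: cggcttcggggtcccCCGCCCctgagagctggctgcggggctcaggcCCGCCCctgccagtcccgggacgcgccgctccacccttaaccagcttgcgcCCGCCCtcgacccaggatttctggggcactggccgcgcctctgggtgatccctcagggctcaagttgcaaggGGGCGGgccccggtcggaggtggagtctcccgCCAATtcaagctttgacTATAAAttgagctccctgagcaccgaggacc
The Dio3 window holds TATAAA with its first base at -31 from the start, CCAAT at -48 and 4 GC boxes, whereas the Dio2 window holds TATAAA at -220 and neither of the others. GC content is 68.8% for Dio3 and 49.6% for Dio2. TATAAA occurs in 12.9% of all 33469 windows of the same length, CCAAT in 34% and GGGCGG in 30.5%. These matches describe the letters only.

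Among the thyroid hormone receptors, mean Thra was lower after the siRNA without passing the test, and mean Thrb was close in both groups. Thra (ENSRNOG00000009066), which encodes the receptor form that prevails in the brain together with a splice form that does not bind hormone, had 5128, 13599, 6981 and 8421 normalised counts in control replicates 1 to 4. It had 4542, 5524 and 5171 after the siRNA. Control replicate 2 was far above the others, the siRNLTR12-int values sat close together, and the groups overlapped only because control replicate 1 lay below siRNLTR12-int replicates 2 and 3. The means were 8532 ± 3637 (SD, n = 4) and 5079 ± 497.4 (SD, n = 3), a ratio of 0.595. Its log2 difference was -0.66, with a standard error of 0.30 and a 95% interval from -1.38 to 0.05 (limma adjusted p = 0.826). In the authors' deposited table it was -0.75 with a standard error of 0.34 (adjusted p = 0.548). Without control replicate 2 the difference shrank to -0.41 (limma adjusted p = 1).

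Thra was also lower after the siRNA on each side of the split in astrocyte markers. Within the 4 libraries low in those markers, the controls had 6981 and 8421 and the siRNLTR12-int libraries 5524 and 5171, a log2 difference of -0.52 that passed the threshold in that subset (limma adjusted p = 0.0366). In the same subset of 2 against 2 libraries 6.68% of all genes passed, and 2.67% of all genes passed on the lower side. Its siRNLTR12-int libraries, replicates 2 and 3, differed least of all pairs of libraries. A chi-square per gene of their reads had a median of 1.365, against 3.139 to 30.877 in other pairs. Sampling alone would give 0.455. The labels do not say whether these replicates share a culture, so the p for Thra in this subset may overstate the evidence. Within the other 3 libraries, control replicates 1 and 2 had 5128 and 13599 and siRNLTR12-int replicate 1 had 4542. The log2 difference there was -0.88, most of it from control replicate 2. That fit holds a single siRNLTR12-int library, which is assumed to vary like the controls. Oligodendrocyte lineage markers, 12 genes with none at 0, summed to between 244749 and 958847 in controls and between 160538 and 278555 after the siRNA. Mbp, the myelin basic protein gene, had 80170, 401821, 78977 and 109426 normalised counts in controls and 32168, 18730 and 15076 after the siRNA. Control replicate 2 was the highest library in both. The part of the lineage marker level in the Thra values was not tested.

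Thrb (ENSRNOG00000006649), the second hormone receptor gene, had 4741, 3731, 2842 and 3222 normalised counts in control replicates 1 to 4 and 5358, 2855 and 2801 after the siRNA. Both replicates numbered 1 were the highest, control replicate 2 came next, and the groups overlapped. The means were 3634 ± 823 (SD, n = 4) and 3671 ± 1461 (SD, n = 3). The log2 difference was -0.03 with a 95% interval from -0.67 to 0.62 (limma adjusted p = 0.998), which leaves room for a change of that size in either direction. The log2 ratio of Thra to Thrb within a library was 0.11, 1.87, 1.30 and 1.39 in controls 1 to 4, and -0.24, 0.95 and 0.88 after the siRNA. In the libraries numbered 2 to 4 it was lower after the siRNA than in the 3 controls, and in each group the library numbered 1 was the lowest. No level was compared between the genes themselves, since the counts are not per length.

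Counting at the Thra locus carries a further limit. In the RefSeq annotation of GRCr8 the gene overlaps Nr1d1, a circadian nuclear receptor transcribed from the opposite strand, and Med24. The libraries were directional per the labels' protocols, but the sources used here do not say whether counting used strand. Nr1d1 (ENSRNOG00000009329) had 5416, 3798, 3039 and 2961 normalised counts in controls and 5594, 3429 and 3339 after the siRNA, and so did not share the order of Thra. The log2 ratio of Thrb to Nr1d1 stayed between -0.26 and 0.12 over the 7 libraries, whereas the log2 ratio of Thra to Nr1d1 ranged from -0.30 to 1.84. RefSeq also places Slc39a7 over part of Rxrb, the upstream reading frame gene Hrurf over Hr, noncoding genes over Thrb and Vdr, and 2 provisional protein-coding genes over Klf9, so those counts are uncertain to the extent that reads were shared.

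Of the retinoid X receptors, Rxra and Rxrb varied little and Rxrg rested on few reads. Rxra (ENSRNOG00000009446) had 1725, 1473, 1295 and 1545 normalised counts in control replicates 1 to 4 and 1911, 1295 and 1306 after the siRNA. Rxrb (ENSRNOG00000000464) had 1259, 1730, 1710 and 2022 in controls and 1284, 1844 and 1798 after the siRNA. The libraries numbered 1 were thus the highest pair for Rxra and the lowest pair for Rxrb, whichever siRNA was used. The log2 differences were -0.02 for Rxra (95% interval -0.43 to 0.38) and -0.03 for Rxrb (95% interval -0.50 to 0.43), with limma adjusted p = 0.998 for both.

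Rxrg (ENSRNOG00000004537), the retinoid X receptor known from oligodendrocytes and their repair, rested on 33, 97, 23 and 15 reads in control replicates 1 to 4 and on 30, 26 and 26 after the siRNA. As normalised counts these were 31.6, 70.4, 19.8 and 26.6 against 27.4, 32.9 and 21.0. Control replicate 2, also the highest in Mbp, stood above all others, and the remaining 6 libraries lay between 19.8 and 32.9. Rxrg differed by -0.30 (log2, 95% interval -1.35 to 0.76, limma adjusted p = 0.982), and without control replicate 2 it was 0.06. Changes inside that interval remain possible, and the read numbers were low.

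The vitamin D receptor gene Vdr (ENSRNOG00000054420) had 181.8, 67.5, 115.5 and 76.3 normalised counts in control replicates 1 to 4 and 190.0, 98.7 and 97.5 after the siRNA. Both replicates numbered 1 were again the highest and the groups overlapped. Vdr differed by 0.26 (log2, 95% interval -0.71 to 1.23, limma adjusted p = 0.983).

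Of the hormone-induced genes, Klf9 was higher in every siRNA library than in any control, without passing the adjusted test, and Hr was not. Klf9 (ENSRNOG00000014215), a Kruppel-like transcription factor directly induced by triiodothyronine and also by glucocorticoids, had 6606, 4203, 5575 and 5599 normalised counts in control replicates 1 to 4. After the siRNA it had 7351, 6740 and 6917. The groups did not overlap, though siRNLTR12-int replicate 2 and control replicate 1 were close. The means were 5496 ± 986.8 (SD, n = 4) and 7002 ± 314.3 (SD, n = 3), a ratio of 1.27. The log2 difference was 0.37 with a standard error of 0.15 and a 95% interval from 0.01 to 0.73, and the adjusted p over all genes was 0.784 (limma), so the difference did not pass. In the authors' deposited table it was 0.35 with a standard error of 0.19 (adjusted p = 0.732).

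Within the 4 libraries low in astrocyte markers Klf9 differed by 0.29 (limma adjusted p = 0.0527), again with the closely alike siRNLTR12-int replicates 2 and 3. Within the other 3 libraries Klf9 differed by 0.48. That last value rests on a single siRNLTR12-int library, assumed to vary like the controls, and carries no weight as a test. Its log2 difference was positive in all 22 alternatives run, from 0.24 to 0.48. That of Thra was negative in all 22, from -0.88 to -0.41. Both ranges include the fits with 1 library left out and the one with a single siRNLTR12-int library, and the alternatives share most of their libraries. Since the Klf9 groups did not overlap, any fit that only left libraries out had to give a positive difference. Changes of the filter or of the variance trend left the estimates as they were. The shared sign of Klf9 therefore mostly restates that its groups did not overlap.

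Hr (ENSRNOG00000011427), which encodes a nuclear corepressor and histone demethylase and is a direct target of the hormone in brain, had 14077, 15792, 17727 and 21847 normalised counts in control replicates 1 to 4. It had 15746, 18152 and 17470 after the siRNA, all inside the control range. The means were 17360 ± 3342 (SD, n = 4) and 17120 ± 1240 (SD, n = 3). The log2 difference was -0.0032 with a 95% interval from -0.38 to 0.38 (limma adjusted p = 0.999). The interval of Klf9 (0.01 to 0.73) and that of Hr overlap, and the difference between the 2 genes was not tested.

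The first 250 bases upstream of Thra and Klf9 are shown as those of the 2 genes with the smallest p among the 10 (RefSeq, build GRCr8, gene strand, 5′ to 3′; Thra chr10:84197891-84198140, plus strand, the first of 2 annotated starts; Klf9 chr1:230126396-230126645, plus strand). Capitals again mark the same letters on either strand.
Thra: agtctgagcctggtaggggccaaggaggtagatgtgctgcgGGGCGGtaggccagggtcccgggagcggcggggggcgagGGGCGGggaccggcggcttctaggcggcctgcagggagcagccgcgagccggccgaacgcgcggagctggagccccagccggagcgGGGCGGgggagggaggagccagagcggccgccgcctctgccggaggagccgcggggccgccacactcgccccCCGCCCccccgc
Klf9: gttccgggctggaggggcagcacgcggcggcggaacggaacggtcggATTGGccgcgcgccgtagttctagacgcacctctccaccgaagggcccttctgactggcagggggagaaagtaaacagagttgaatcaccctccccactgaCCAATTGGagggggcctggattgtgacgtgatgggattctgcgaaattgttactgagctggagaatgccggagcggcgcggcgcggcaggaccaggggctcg
The Thra window holds 4 GC boxes and neither of the other motifs, with a GC content of 79.6%. The Klf9 window holds CCAAT at 3 places, a pair of them overlapping on opposite strands, and no GC box, at 63.6%. RefSeq windows were matched for 9 of the 10 genes, 10 windows in all, and 6 of these hold a GC box. The half-site AGGTCA, to which these receptors bind, was searched on both strands and occurs in 0 of the 10 windows, against 14.1% of all windows. Its direct repeat with a spacer of 4 bases, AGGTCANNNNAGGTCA, which contains AGGTCA, occurs in 0.00299% of all windows. No match says only that these letters are absent from this stretch, since response elements often lie further away and vary in sequence.

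**Figure D2:**
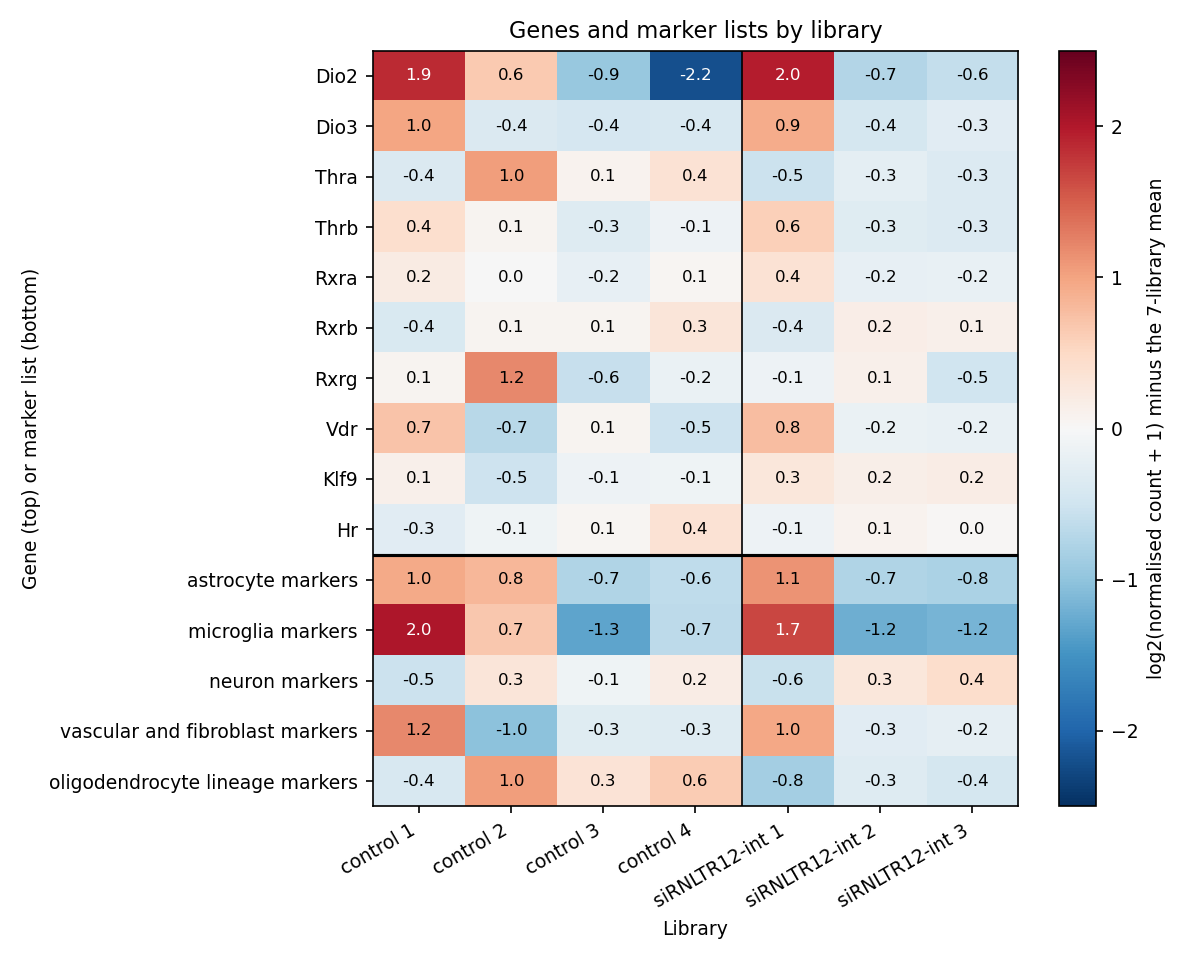
Heat map of log2(normalised count + 1) minus its mean over the 7 libraries (colour and printed value) for the 10 genes above the line and the mean level of 5 marker lists below it, by library. Control 1 and siRNLTR12-int 1 are the highest pair in 5 genes and the lowest pair in 3, and are also high in astrocyte, microglia, and vascular and fibroblast markers.

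A feature shared by most of the 10 genes was the contrast of both libraries numbered 1 with the rest. Control replicate 1 and siRNLTR12-int replicate 1 were the highest pair in Dio2, Dio3, Thrb, Rxra and Vdr, 5 of 10 genes, against 18.6% of all genes tested. They were the lowest pair in Thra, Rxrb and Hr, 3 of 10 genes, against 21.3% of all. Either pattern together held for 8 of 10 genes and 39.9% of all. The mean level of astrocyte markers in the 2 libraries was 14.57 and 14.74 on the log2(normalised count + 1) scale, against 14.45 in control replicate 2 and 12.83 to 12.98 in the other 4. For microglia markers it was 9.63 and 9.27, against 8.29 and 6.29 to 6.95. For vascular and fibroblast markers it was 6.43 and 6.20, against 4.20 to 5.01 in the other 5 libraries. The labels give these libraries no shared day or culture beyond the replicate number, and the part of other cells in the receptor and deiodinase values was not tested.

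**Figure D3:**
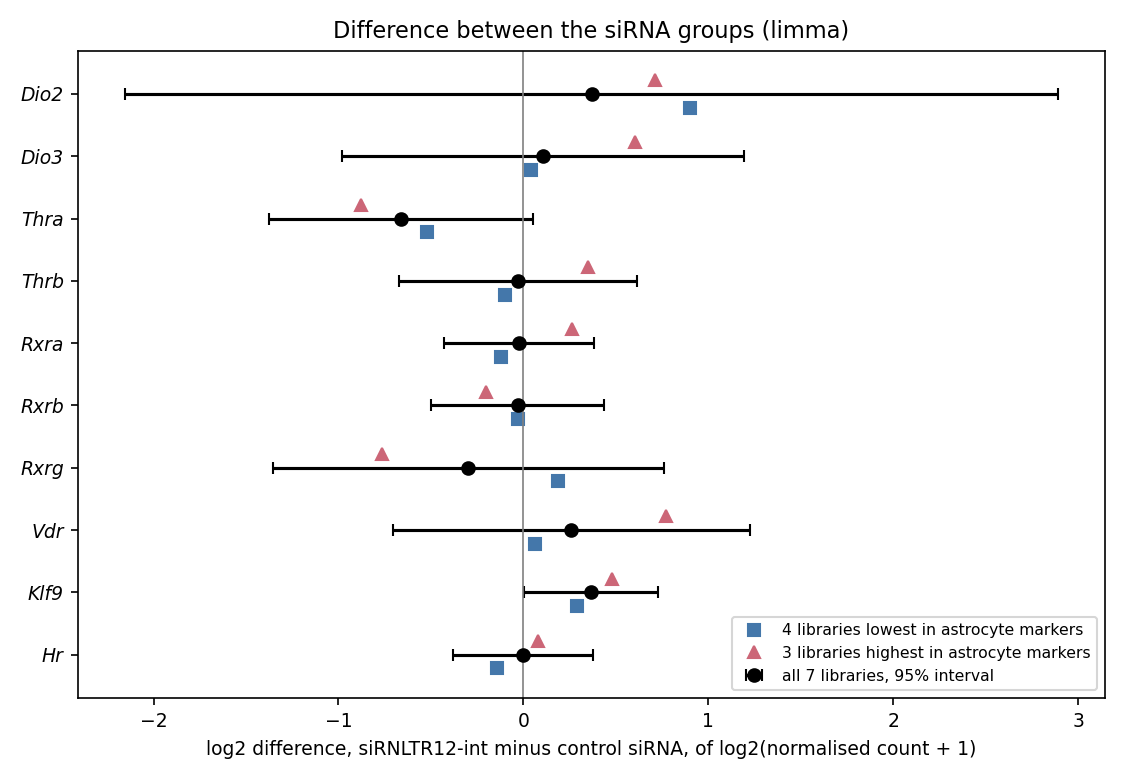
Log2 difference of log2(normalised count + 1), siRNLTR12-int minus control siRNA, for each gene: black points with 95% intervals are from all 7 libraries (limma), blue squares from the 4 libraries lowest in astrocyte markers and red triangles from the 3 highest. Thra lies below 0 and Klf9 above 0 in all 3 sets, while Thrb, Rxra, Rxrg and Hr change side between the sets.

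The genes whose pattern over the 7 libraries was most like each member are given as a description, by Pearson's r on log2(normalised count + 1) among 12346 or 12347 genes with a mean of at least 100. The points share libraries and the cell mixture, and many genes reach a high r over 7 points: 1130 genes had an r of at least 0.9 with Thrb and 102 with Rxrg. For Thra these were Nacad (0.997), Slc6a8 (0.996) and St8sia5 (0.996), and for Thrb Card14 (0.999), Wdr78 (0.996) and Zmym5 (0.996). Rxra was closest to Itga2b (0.991), Pygl (0.989) and Srxn1 (0.986), Rxrb to Rbm15b (0.997), Kbtbd11 (0.995) and Rnf111 (0.992), and Rxrg to Phpt1 (0.988), Ptp4a2 (0.981) and Bzw1 (0.972). Vdr was closest to Hsd11b1 (0.985), Col3a1 (0.983) and Rnf149 (0.982), Klf9 to Pik3cb (0.995), Jade2 (0.992) and Smad3 (0.987), and Hr to Gba2 (0.997), Pcmtd2 (0.982) and Rplp0 (0.982). Dio2 was closest to Lmo2 (0.998), Diras2 (0.997) and a gene with only a clone name, and Dio3 to Nr1h3 (0.996), Rpl12 (0.995) and Slco4a1 (0.993). Nr1h3 encodes the liver X receptor alpha, another partner of the retinoid X receptors.

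The surrounding pathways were read from 8 gene lists, with 91 gene entries tested in all. None passed with limma, where 17 had an unadjusted p under 0.05, against 6.3% of all genes, and none with edgeR, where 14 did, against 6.39% of all genes. In the authors' deposited table Cyp26b1 and Dusp1 rose and the myelin genes Mbp and Mag fell. Over all genes tested 51% had a log2 difference above 0.

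Genes for hormone entry, binding and activation showed 5 of 8 tested members above 0 and a median of 0.15. The sign of that median depended on the processing: it was -0.07 with edgeR and -0.12 with DESeq2, but 0.16 with TMM rescaling. Slc16a10, a transporter of aromatic amino acids and thyroid hormones, had 33.5, 51.5, 23.3 and 21.3 normalised counts in controls and 16.4, 10.1 and 17.7 after the siRNA. All 3 siRNA values lay below every control (log2 difference -1.03, limma adjusted p = 0.755), a pattern of 3.59% of all genes. These values rest on few reads: 1 read made 1.77 normalised counts in control replicate 4 and 1.27 in siRNLTR12-int replicate 2. Crym, which encodes a cytosolic protein that binds triiodothyronine, differed by -0.28 (limma adjusted p = 0.875).

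Corepressors and coactivators of the receptors were evenly divided, 7 of 14 above 0, with a median of 0.02. Crebbp, a histone acetyltransferase that acts as a coactivator, differed by 0.24 (limma adjusted p = 0.875).

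Other genes known to respond to thyroid hormone had 4 of 12 tested members above 0 and a median of -0.28. The myelin genes Mbp and Mag, which are among them, differed by -2.63 and -2.75 (limma adjusted p = 0.647 for both) and fell in the authors' deposited table (log2 -2.93 and -3.13, adjusted p = 0.00236 and 0.00318). Myelin genes were already known to be low in these libraries when the list was written, so they are no independent sign of its direction.

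In the retinoic acid list 10 of 14 tested members were above 0, with a median of 0.21. Cyp26b1, the enzyme that degrades retinoic acid, had 152.1, 182.1, 130.1 and 101.1 normalised counts in controls. After the siRNA it had 224.7, 322.8 and 339.3, all above every control, a pattern of 4.09% of all genes. Cyp26b1 was named for the smallest p of its list, so the lack of overlap adds no support of its own. Its log2 difference was 1.07 (95% interval 0.48 to 1.66, limma adjusted p = 0.647), and it rose by 1.05 in the authors' deposited table (adjusted p = 0.0267). Fabp5, a fatty acid and retinoic acid binding protein, differed by -0.46 (limma adjusted p = 0.832).

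In the vitamin D list 5 of 6 members were above 0, with a median of 0.35. Cyp24a1, the enzyme that degrades active vitamin D and a direct target of its receptor, had 18.2, 0, 8.6 and 1.8 normalised counts in controls and 57.6, 50.6 and 36.3 after the siRNA. Every siRNA library lay above every control, in both libraries numbered 1 as in the others, a pattern of 4.09% of all genes. Cyp24a1 was named for the smallest p of its list, so the lack of overlap adds no support of its own. The log2 difference was 3.34 (95% interval 1.04 to 5.65, limma adjusted p = 0.67), a size that depends on the pseudocount because control replicate 2 had 0 reads, where 3 reads would make 2.18 normalised counts. In the authors' deposited table it was 2.73 (adjusted p = 0.277). Pdia3, a protein disulfide isomerase, differed by 0.11 (limma adjusted p = 0.935).

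Other partners and orphan nuclear receptors had 15 of 16 entries above 0, with a median of only 0.10. Without siRNLTR12-int replicate 1 the median was -0.03, and it stayed above 0 when any other library was left out. In 1 of 16 entries all siRNLTR12-int values lay above every control, against 4.09% of all genes. Nr4a3 and Nr4a2, orphan receptors induced early after stimulation, differed by 1.19 and 1.03 (limma adjusted p = 0.701 for both) with overlapping groups. Nr4a3 had 444.9 normalised counts in siRNLTR12-int replicate 1, inside the control range of 248.4 to 466.9, against 1218 and 965.5 in the other siRNA libraries.

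Among other Kruppel-like factors 11 of 14 entries were above 0, with a median of 0.30, close to the difference of Klf9 itself. Klf5 differed by 1.11 and Klf3, a repressor of the family, by 0.42 (limma adjusted p = 0.712 and 0.716), both with overlapping groups. For 0 of 14 did all siRNLTR12-int values lie above every control, against the 4.09% of all genes.

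Genes of the glucocorticoid response, a signal that also induces Klf9, had 5 of 8 members above 0 and a median of 0.26, and in 3 of 8 all siRNLTR12-int values lay above every control, against 4.09% of all genes. Dusp1, a phosphatase of mitogen-activated kinases, had 145.4, 164.0, 93.1 and 86.9 normalised counts in controls and 239.4, 308.9 and 247.4 after the siRNA. It differed by 1.15 (limma adjusted p = 0.647) and rose by 1.10 in the authors' deposited table (adjusted p = 0.0328). Per1, a circadian regulator, had 2834, 1705, 2647 and 2652 in controls and 3396, 4488 and 4032 after the siRNA (log2 difference 0.71, limma adjusted p = 0.661). Dusp1 and Per1 are named for the smallest p of the list. Zbtb16 and Fkbp5 were higher as well, by 1.12 and 0.47 (limma adjusted p = 0.77 and 0.794), Fkbp5 without overlap. Not all genes of the list rose. Sgk1, Pdk4 and Sult1a1 differed by -0.34, -0.23 and -0.22, and Tsc22d3 by 0.06.

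**Figure D4:**
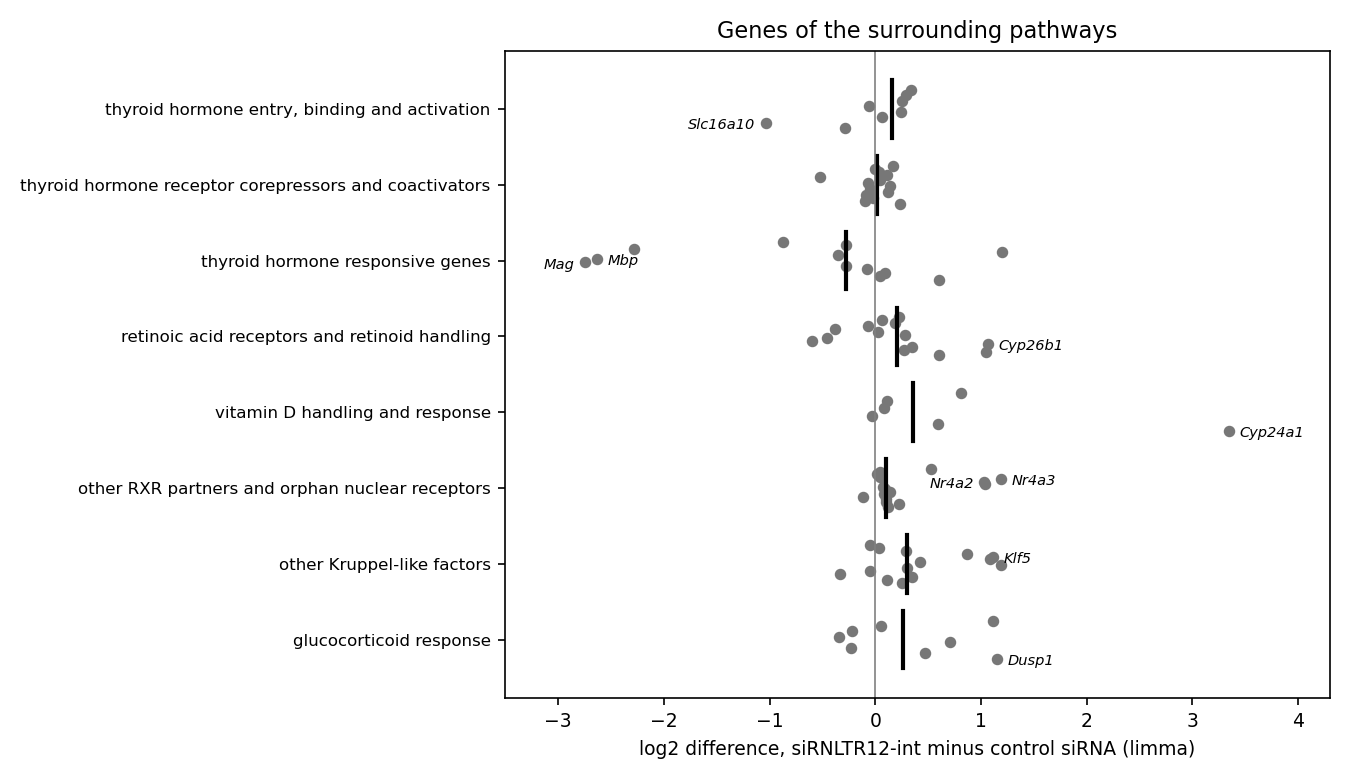
Log2 difference, siRNLTR12-int minus control siRNA (limma, 7 libraries), of every tested gene entry of the 8 pathway lists (grey points) with the median of each list (black line); of the 2 genes with the smallest p of each list, those with a difference beyond 1 in either direction are named. Medians lie between -0.28 and 0.35, and Cyp24a1 (3.34) and the myelin genes Mbp (-2.63) and Mag (-2.75) are the outermost points.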

How the data were processed

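Ribosomal RNA was removed from the total RNA of 7 samples, and the libraries were directional and read from both ends, per the labels' protocols. Salmon, DESeq2 and the build Rnor_6.0 are named, without versions, per the submitters' processing notes. The authors deposited normalised counts, a signal per gene scaled by 1 size factor per library, and per the file headers a table comparing siRNLTR12-int with control. That table, deposited by the authors, gives a mean signal, a log2 fold change with its standard error, a test score, and raw and adjusted p-values. Dividing by 1 step per library turned 100% of the nonzero deposited values into whole numbers (tolerance 0.01), taken as reads. Such whole numbers also result from rounded estimates.

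The main test was limma 3.58.1 (empirical Bayes with mean-variance trend, two-sided, all 7 libraries, no covariate) on log2(normalised count + 1) over 18225 genes with a mean of at least 10, adjusted by Benjamini-Hochberg over all of them. The added 1 tends to pull log2 differences of low genes towards 0. They can still exceed those of the authors' deposited table, as for Cyp24a1 (3.34 against 2.73). edgeR 4.0.16 and DESeq2 1.42.0 were run on recovered reads, and DESeq2 called 72 genes higher and 69 lower. The scripts were tested on simulated data. Genes named are the 10 members, those reported among the 2 with the smallest p of each of 8 lists, defining markers, Nr1d1, and the 3 genes most like each member. Map2 and further genes of the glucocorticoid list are named as well, to show how their lists are made up. Some results of the lists are not reported here. The members, the lists and the division of libraries by astrocyte level were chosen with earlier results of these data known. List symbols with 2 gene identifiers count as 2 entries. List members without a value are not analysed here. Promoter letters come from RefSeq (GRCr8).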

Additional observations from a re-analysis of the deposited data

Results flagged for a closer look

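Dio3 had 1217 normalised counts in control replicate 1 while the remaining controls had 459.4 to 478.2, a gap of 0.975 of the whole range of the 4 controls. Mbp had 401821 in control replicate 2, against 78980 to 109400, a gap of 0.906. Both gaps exceed the critical value of Dixon's test for 4 samples. Of 16 genes examined 2 were marked in this way, and chance marks about 1 in 20 groups.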

How the results depend on the processing

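Over 22 alternatives (21 for Rxrg) 0 of the 10 genes passed, except that Thra passed in the 4 libraries lowest in astrocyte markers (1 gene). The siRNLTR12-int libraries of that subset were the closely alike replicates 2 and 3. In the pathway lists the number called rose from 0 to 19 in those 4 libraries, to 14 with array weights and to 5 with DESeq2, of 91 entries tested (93 with DESeq2). Of all genes 6.68%, 4.6% and 0.752% were called under the same settings. In the 4 libraries 15 were higher and 4 lower, with Cyp26b1, Cyp24a1, Dusp1 and Per1 among the higher. The direction of Thra and of Klf9 held throughout, and that of the other 8 genes did not. For Klf9, whose groups did not overlap, fits that only left libraries out could not have reversed it. Dio2 became -0.31 with the replicate block. Dio3 became -0.043 with array weights and -0.013 with the replicate block. Hr became 0.079 in the 3 libraries highest in astrocyte markers and 0.11 with the replicate block. Rxra became 0.026 with the astrocyte level as covariate and 0.26 in those 3 libraries, and Thrb 0.066 and 0.35. Thrb was 0.012 with edgeR and 0.015 with DESeq2. Rxrb became 0.0030 with array weights, 0.064 with the replicate block and 0.0045 without both libraries numbered 1. Rxrg became 0.19 in the 4 libraries with low astrocyte levels. With 1 library left out, the differences ranged from -0.51 to 1.04 for Dio2, -0.32 to 0.45 for Dio3, -0.10 to 0.11 for Hr, -0.21 to 0.073 for Rxra, -0.16 to 0.14 for Rxrb, -0.53 to 0.059 for Rxrg, -0.34 to 0.13 for Thrb and -0.056 to 0.54 for Vdr. The replicate block used libraries numbered 1 to 3 and so dropped control replicate 4. For each of the 10 genes its difference equalled that of the fit without control replicate 4, as -0.3088 for Dio2 and 0.1138 for Hr. The changes seen with the block thus came with leaving out that library, and both settings give the same estimate. The cause of the other changes was not tested. Deviations of same-numbered libraries correlated at 0.746, -0.191 and 0.632. The libraries numbered 1 were thus alike, whereas siRNLTR12-int replicate 2 correlated with control replicate 3 (0.566) and not with control replicate 2. The numbers therefore do not show a pairing across all replicates. The block called 0 of 18225 genes, as without it. The fits without both libraries numbered 1 and in the 3 libraries high in astrocyte markers were added after seeing the data, and the latter holds 1 siRNLTR12-int library. Rescaling by TMM or upper quartile moved the median of all genes by less than 0.1 (0.01 and -0.01, against 0.01). Rxrg, with 15 to 97 reads, and Dio2 in control replicate 4, with 19, are limited by depth.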
